A study of Mus musculus with 6 samples.

Results

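A group of 8 immune and growth-linked long noncoding RNA genes was compared between mouse macrophages exposed to tumour vesicles and control macrophages. They were taken by symbol from the deposited tables: Neat1 and Malat1 (nuclear RNAs), Mir155hg (a microRNA host), AW112010 (an immune-inducible transcript), and Gas5, Snhg1, Snhg12 and Epb41l4aos (hosts of small nucleolar RNAs, snoRNAs). All 8 had a row among 26835 genes, and 7 passed the filter on low values that 13009 genes passed.

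The cells were wild-type bone marrow-derived macrophages from BALB/c mice aged 5 to 8 weeks, grown from marrow for 6 days in 10% serum with M-CSF at 25 ng/ml. They were then given PBS (3 libraries) or 10 µg of extracellular vesicles shed by the mouse osteosarcoma line K7M2 (K7M2-EV, 3 libraries), for 24 h. Both groups had the same culture, and the submitters number the libraries as biological replicates from independent experiments. The animals behind each library are not given in the sources used here. Levels are in FPKM, a unit corrected for annotated exon length and sequencing depth. Where that length covers introns or a long isoform, as in Gas5, Snhg1, Snhg12 and Neat1, levels compare only loosely between genes.

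Neat1 and Malat1 are transcribed from neighbouring genes and stay in the nucleus. Neat1 is the scaffold of paraspeckles, nuclear bodies that hold back proteins and some RNAs, and Malat1 collects at nuclear speckles rich in splicing factors. Mir155hg is the primary transcript of miR-155, a microRNA that activated macrophages make through NF-κB signalling. AW112010 was annotated as noncoding, is induced by interferon and endotoxin in myeloid cells, and has been reported to be translated into a small protein. SnoRNA hosts carry snoRNAs in their introns. Their spliced RNAs are mostly short-lived, because translation exposes them to nonsense-mediated decay, and Gas5 was named for its accumulation in growth-arrested cells.

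Sequences of the 2 members that were higher with vesicles are shown first, because the data on Mir155hg concern the host transcript and not the microRNA. RefSeq (GRCm38.p6) places the miR-155 hairpin at chr16:84714140-84714204 on the plus strand, inside Mir155hg, and the arms are given 5′ to 3′ with the seed, bases 2 to 8, in capitals.
mmu-miR-155-5p: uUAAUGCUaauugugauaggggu
mmu-miR-155-3p: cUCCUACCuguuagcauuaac
Of 1738 mature mouse microRNAs in the same table, only 1, miR-155-5p itself, has the 5p seed. For AW112010, the 300 bases from 250 before to 50 after the RefSeq start are given below, with the match to the NF-κB consensus, which reads on the opposite strand, in capitals. The window is chr19:11050517-11050816 on the minus strand.
AW112010 promoter: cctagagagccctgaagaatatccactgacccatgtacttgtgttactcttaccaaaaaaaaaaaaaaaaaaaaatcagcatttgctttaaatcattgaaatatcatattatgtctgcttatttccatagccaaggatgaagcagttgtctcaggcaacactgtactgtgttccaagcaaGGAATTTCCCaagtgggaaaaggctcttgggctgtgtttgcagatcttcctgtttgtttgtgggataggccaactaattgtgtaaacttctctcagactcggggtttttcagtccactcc
The match begins 70 bases before the start. On either strand, 4.51% of 32851 promoter windows of this length hold the NF-κB consensus. The same windows were searched on both strands for the E-box CACGTG (7.15% of all windows), the AP-1 site TGANTCA (7.81%) and the interferon-stimulated response element (3.44%). None of these motifs was in the 7 windows given for 6 members, and no window was given for Neat1 or Epb41l4aos. The NF-κB consensus was in the AW112010 window only, and so not in that of Mir155hg. The Mir155hg window is set on the RefSeq start at 84713023, which lies inside the annotated gene counted here, beginning at 84703167. A match or its absence is a description of these letters, not of a factor's binding.

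AW112010 changed most. Its level was 1.12, 1.10 and 1.26 FPKM in PBS replicates 1 to 3 and 67.7, 47.7 and 56.5 FPKM in K7M2-EV replicates 1 to 3. The groups lay far apart, and every vesicle library was above every PBS library. The means of 1.16 ± 0.0904 and 57.3 ± 10.0 FPKM (SD, n = 3 per group) differed 49.3-fold. On log2(FPKM + 1), a scale that compresses changes at low levels, the fold change was 4.74 ± 0.12 (SE, limma, Benjamini-Hochberg adjusted p = 2.59e-06). It ranked 21st among the rises of all genes tested. The PBS values rested on few fragments, with 19 to 26 implied reads per library against 850 to 1310 with vesicles. The gene lies on chromosome 19 at 11047612 to 11055808 (GRCm38, minus strand), with 804 bases of exon. Its neighbour Ms4a8a was at or near 0 in both groups. Ccdc86, the neighbour on the other side and 98346 bases away, rose from 3.86 ± 0.263 to 7.54 ± 0.222 FPKM (log2 fold change 0.81, limma adjusted p = 7.68e-05).

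Mir155hg was near the floor in both groups and higher with vesicles. It stood at 0.0317, 0 and 0.0815 FPKM in PBS replicates 1 to 3 and at 0.493, 0.283 and 0.522 FPKM in K7M2-EV replicates 1 to 3. The highest PBS library was below the lowest vesicle library. At its exon length of 1433 bases these values correspond to 1, 0 and 3 reads and to 17, 9 and 18 reads, nearly exact whole numbers. Summed over libraries, 4 reads of 69016540 stood against 44 of 70338330, a ratio of 10.8 with a 95% interval of 3.93 to 41.4 (exact Clopper-Pearson, counting error only). The gene missed the filter of 1 FPKM in 3 libraries and has no place in the planned test. With no filter the log2 fold change was 0.46 ± 0.079 (SE, limma adjusted p = 0.00720), and limma's voom fit on approximate reads gave 3.34 ± 0.63 (adjusted p = 0.00408), an alternative chosen after the data were seen. A permutation test of 3 against 3 libraries cannot go below p = 0.1, so the separation alone does not pass 0.05.

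The libraries tell little of the microRNA itself. Every PBS library listed the Mir155 row, 65 bases long, at 0. The vesicle libraries listed it at 0.639, 0.694 and 0.639 FPKM, which is 1 read in each. Of 1001 rows annotated as microRNA, 209 (20.9%) held exactly 1 implied read in all 6 libraries (within 0.1), against 2 of 19812 rows with more than 1000 bases of exon. A value of 1 read in so short a row therefore carries little information. Mrpl39, the neighbour 2331 bases from Mir155hg, was at 6.26 ± 0.403 FPKM under PBS and 6.27 ± 0.341 FPKM with vesicles (log2 fold change 0.0029, limma adjusted p = 0.973).

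**Figure D1:**
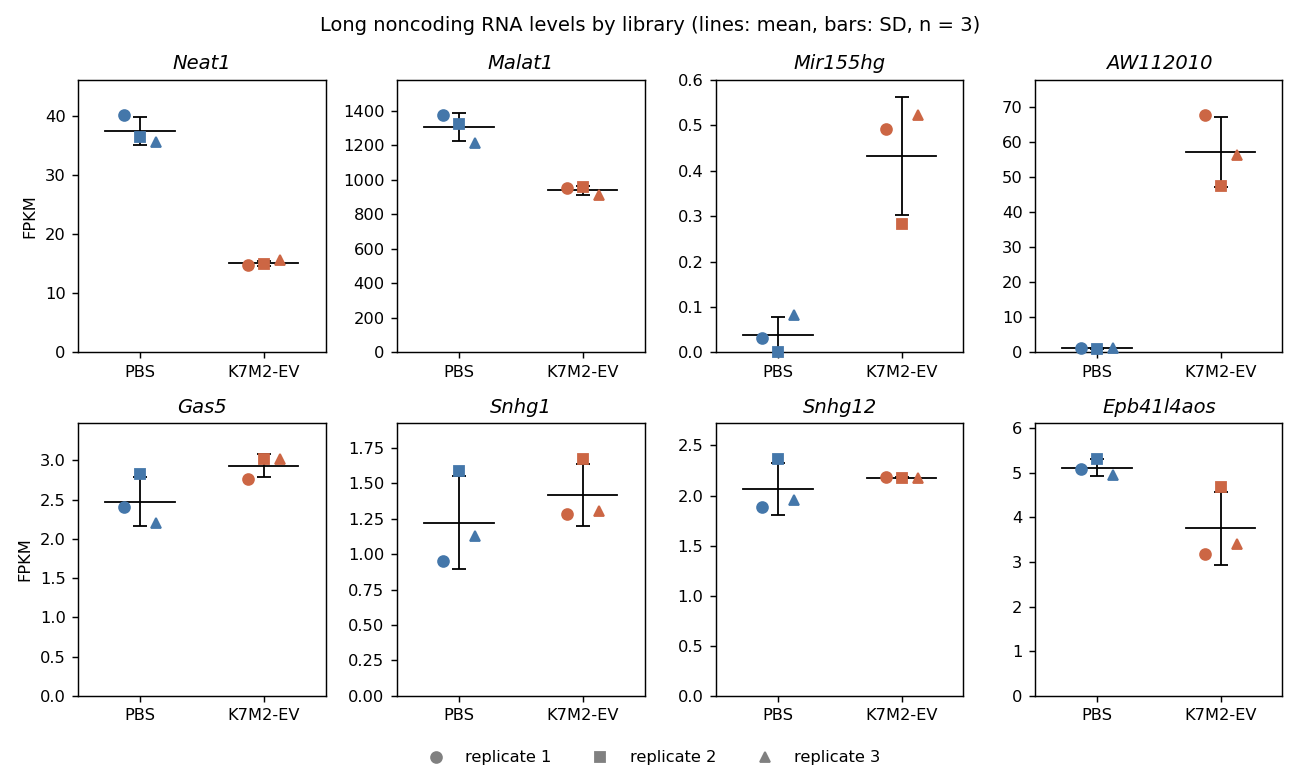
FPKM of each long noncoding RNA (y axis, linear, from 0) in the PBS and K7M2-EV libraries, with marker shapes for replicates 1 to 3, lines for the mean and bars for the SD (n = 3). AW112010 and Mir155hg are higher and Neat1, Malat1 and Epb41l4aos lower in every vesicle library than in any PBS library, while the groups overlap for Gas5, Snhg1 and Snhg12.

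Neat1 fell to below the level of any PBS library in all 3 vesicle libraries. It was at 40.1, 36.6 and 35.6 FPKM in PBS replicates 1 to 3 and at 14.7, 14.9 and 15.6 FPKM in K7M2-EV replicates 1 to 3. The libraries of each group were close together, with SDs of 6.34% and 2.92% of the mean. The means of 37.5 ± 2.37 and 15.1 ± 0.440 FPKM stood in a ratio of 2.48 (PBS over K7M2-EV), and the log2 fold change was -1.26 ± 0.061 (SE, limma adjusted p = 1.68e-05). Neat1 took 6878 to 19019 implied reads per library, a counting error of at most 1.21%.

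Neat1 is made as a short and a long form that share their 5′ end, and its row is scaled to the whole 20771 bases (chromosome 19, 5824708 to 5845478, minus strand, a single-exon span). The gene row thus does not separate the forms. A row annotated separately inside the shared end, Gm27505 with 110 bases, gives a reading of that end and was singled out after its values were seen. It was at 530, 513 and 485 FPKM under PBS and 192, 185 and 218 FPKM with vesicles, a ratio of means of 2.57 beside 2.48 for the whole gene. The other 2 short rows there, Gm27533 (152 bases) and Gm28006 (122 bases), held 1 implied read in each of the 6 libraries and show no difference. The 2 rows may share reads, and FPKM of so short a row is uncertain. The antisense neighbour Frmd8os was at 0.455 ± 0.0238 and 0.350 ± 0.103 FPKM.

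Malat1 was the most abundant of the 8 and 25th of all rows by mean FPKM over the 6 libraries. It was at 1372, 1325 and 1214 FPKM in PBS replicates 1 to 3 and at 952, 958 and 910 FPKM in K7M2-EV replicates 1 to 3. All vesicle libraries were below all PBS libraries. The means of 1304 ± 81.4 and 940 ± 26.1 FPKM stood in a ratio of 1.39, and the log2 fold change was -0.47 ± 0.065 (SE, limma adjusted p = 0.00121). It took 0.635% to 0.958% of all implied reads. Median-of-ratios scaling brought the change to -0.28 (limma adjusted p = 0.0109). The gene lies beside Neat1 at 5795690 to 5802672 on the same strand. The antisense row Gm37376 inside Malat1 held 289 to 368 implied reads under PBS and 193 to 261 with vesicles. Without a stated strand setting its reads cannot be told from those of Malat1.

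Set against Malat1 in the same library, Neat1 was lower with vesicles. Neat1 FPKM was 2.92%, 2.76% and 2.94% of Malat1 FPKM in PBS replicates 1 to 3 and 1.55%, 1.56% and 1.71% in K7M2-EV replicates 1 to 3. The share was lower in each vesicle library than in any PBS library. This within-library ratio does not depend on library scaling, and its log2 value changed by -0.84 between group means of -5.12 ± 0.050 and -5.96 ± 0.081. The exact two-sided permutation test gave p = 0.1, the smallest that 3 against 3 libraries allow.

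Of the 4 snoRNA hosts only Epb41l4aos was called, and 3 overlapped between groups. Among all genes tested, 54.0% were called and 63.8% did not overlap. Gas5 was at 2.40, 2.82 and 2.20 FPKM in PBS replicates 1 to 3 and at 2.76, 3.02 and 3.01 FPKM in K7M2-EV replicates 1 to 3. PBS replicate 2 lay above the lowest vesicle library. The log2 fold change was 0.18, with a 95% interval of -0.018 to 0.38 (limma adjusted p = 0.108). That interval includes no change and a rise of this small size. Gas5 (chromosome 1, 161034422 to 161038539, plus strand) overlaps the start of Zbtb37 on the other strand, a gene at 1.03 to 1.17 FPKM under PBS and 0.694 to 0.857 FPKM with vesicles.

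Snhg1 was at 0.952, 1.59 and 1.13 FPKM under PBS and at 1.28, 1.67 and 1.31 FPKM with vesicles, in replicate order. Within each group replicate 2 was the highest, and the groups overlapped. The log2 fold change was 0.13 with a 95% interval of -0.17 to 0.43 (limma adjusted p = 0.416). The gene starts 106 bases from Slc3a2, a solute carrier gene read in the other direction, which was at 41.7 ± 1.81 and 43.7 ± 3.38 FPKM (log2 fold change 0.063, limma adjusted p = 0.489). Snhg12 was at 1.88, 2.37 and 1.95 FPKM under PBS and at 2.18, 2.18 and 2.17 FPKM with vesicles. The vesicle libraries lay within the range of the PBS libraries, and the log2 fold change was 0.055 with a 95% interval of -0.13 to 0.24 (limma adjusted p = 0.574).

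Epb41l4aos was at 5.09, 5.31 and 4.94 FPKM in PBS replicates 1 to 3 and at 3.17, 4.67 and 3.40 FPKM in K7M2-EV replicates 1 to 3. The groups did not overlap, but K7M2-EV replicate 2 came close to the PBS libraries. The log2 fold change was -0.38 ± 0.12 (SE, limma adjusted p = 0.0356) on 33 to 55 implied reads per library. The call was lost without PBS replicate 1, 2 or 3 (limma adjusted p = 0.0844, 0.0945 and 0.0783) and without K7M2-EV replicate 1 or 3 (0.102 and 0.110). It was also lost with no filter (0.0680), in the voom fit (0.0591), with quantile normalization (0.0928) and with median-of-ratios scaling (-0.22, 0.137). Its antisense neighbour Epb41l4a, 341 bases away on chromosome 18, was at 0.366 ± 0.221 and 0.258 ± 0.227 FPKM.

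The 4 hosts summed to 10.3, 12.1 and 10.2 FPKM under PBS and to 9.40, 11.5 and 9.89 FPKM with vesicles, in replicate order. The means of 10.9 ± 1.05 and 10.3 ± 1.12 FPKM overlapped (exact two-sided permutation p = 0.5). Within same-numbered pairs the sum was lower with vesicles in 3 of 3 (exact paired permutation p = 0.25, the smallest that 3 pairs allow). Gas5 and Snhg1 were each higher in 3 of 3 pairs, Snhg12 in 2 of 3, and Epb41l4aos was lower in 3 of 3. By group means only Epb41l4aos fell, from 5.11 to 3.75 FPKM, so the lower sum came from this member. Gas5 went from 2.47 to 2.93, Snhg1 from 1.22 to 1.42 and Snhg12 from 2.07 to 2.18 FPKM. Replicate 2 had the highest sum in each group. A list of 10 mesenchymal, osteoblast and osteosarcoma genes, also expressed in marrow stroma, had its largest sums in the same pair of libraries. It summed to 138, 334 and 153 FPKM in PBS replicates 1 to 3. In K7M2-EV replicates 1 to 3 it summed to 284, 659 and 275 FPKM. The sum was higher with vesicles in each same-numbered pair, though the groups overlapped. Of the 7 tested, Lox was called higher and Runx2 lower, and 5 rose and 1 fell in the paired fit. The part of such cells in the host levels was not tested. In bulk RNA, fewer cells of a type and less RNA per cell cannot be told apart.

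The row lengths matter for these hosts. For Snhg1 and Snhg12 the merged exons cover the whole gene (2969 and 2402 bases), and for Gas5 they cover 3760 of 4118 bases, because annotated forms that keep introns are included. Their FPKM is thus an average over exons and introns and understates the level of the short spliced RNA. Of 22 snoRNA rows lying inside the 4 hosts, 10 held exactly 1 implied read in all 6 libraries. The largest, Snord22 in Snhg1, was at 60.6, 33.1 and 36.1 FPKM under PBS and at 29.3, 38.3 and 30.0 FPKM with vesicles, and the groups overlapped. The 9 snoRNA rows inside Gas5 summed to 66, 81 and 96 implied reads with PBS and 124, 109 and 112 with vesicles. That sum was higher in each vesicle library, but it holds few reads and rests on rows shorter than a typical fragment, so no test was made. The sums for the other hosts overlapped between groups. They were 184, 111 and 144 against 116, 129 and 119 reads in Snhg1 (8 rows) and 22, 27 and 34 against 33, 31 and 41 reads in Snhg12 (4 rows). Epb41l4aos (1 row) had 5, 5 and 7 against 8, 9 and 5 reads.

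The starts of the hosts are shown because genes of the translation machinery and several snoRNA hosts begin with a run of pyrimidines, the 5′ terminal oligopyrimidine tract, which ties them to growth signalling. The first 50 bases from the RefSeq start (GRCm38.p6, plus strand) are given with the leading pyrimidines in capitals, for Gas5 from the start at position 161035166 of chromosome 1.
Gas5: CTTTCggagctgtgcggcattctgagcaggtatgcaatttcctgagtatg
Snhg1: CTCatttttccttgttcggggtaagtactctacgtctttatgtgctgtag
Snhg12: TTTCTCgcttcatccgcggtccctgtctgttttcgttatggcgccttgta
From this start Gas5 opened with 5 pyrimidines, and from its other RefSeq start at 161034601 with 0. Snhg12 opened with 6 and Snhg1 with 3. Of all promoter windows, 4.44% opened with at least 5, 2.93% with at least 6 and 10.7% with at least 3. This count was chosen after the sequences were seen. It takes C and T alike, and Snhg12 opened with T, so the count does not say which start holds such a tract. The planned search for CTTTT or CTTCC in these 50 bases, found in 14.3% of windows, matched none of the 7 windows given for 6 members. The starts of AW112010 and Malat1 opened with 1 pyrimidine and that of Mir155hg with 0.

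Across the 7 tested members, 1 was called higher and 3 lower (limma, adjusted p under 0.05). Of all 13009 genes tested, 54.0% were called, 18.4% higher and 35.6% lower, so a count of 4 in 7 is near the background. The groups did not overlap in 4 of the 7, where 63.8% of all genes tested did not overlap (21.8% higher and 42.0% lower), and in Mir155hg besides. The median log2 fold change was 0.055 over the 7 and -0.12 over all genes tested. Scaling moved that background. After median-of-ratios scaling the median of all genes was 0.037, Gas5 was called higher (log2 fold change 0.32, adjusted p = 0.0110) and Epb41l4aos was not called. After quantile normalization Gas5, Snhg1 and Snhg12 were called higher (0.35, 0.36 and 0.25, adjusted p = 0.00884, 0.0444 and 0.0263). The Neat1, Malat1 and AW112010 calls held under both scalings.

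**Figure D2:**
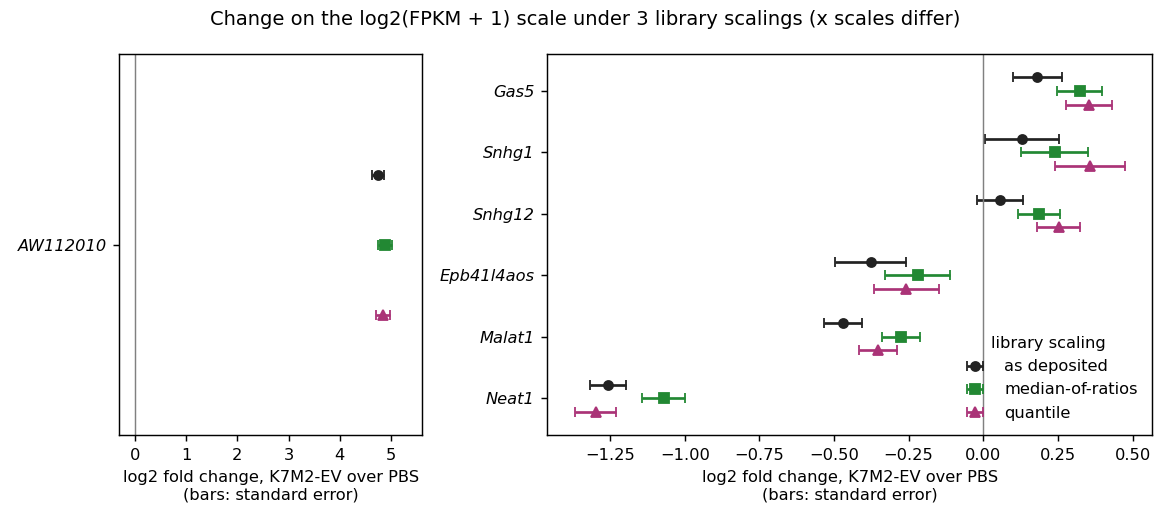
Log2 fold change of K7M2-EV over PBS on log2(FPKM + 1), with standard errors as bars, for the 7 tested members under the deposited scaling, median-of-ratios scaling and quantile normalization. AW112010 is on its own x scale near 4.7 to 4.9. Gas5, Snhg1 and Snhg12 lie above 0 and Epb41l4aos, Malat1 and Neat1 below 0 under each of the 3 scalings, at different distances.

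The order of levels also changed. By mean FPKM under PBS, and within the limit that exon lengths set for Gas5, Snhg1, Snhg12 and Neat1, the members ran Malat1, Neat1, Epb41l4aos, Gas5, Snhg12, Snhg1, AW112010 and Mir155hg. The ranges of Gas5 and Snhg12 overlapped there, as did those of Snhg1 and AW112010, and the other neighbours in the order did not. With vesicles AW112010 stood after Malat1 and above Neat1. Epb41l4aos and Gas5 came closer, at 3.75 ± 0.809 and 2.93 ± 0.149 FPKM. The genes whose values followed a member most closely over the 6 libraries were Lad1 for AW112010 (Pearson r = 0.9998), Zfp169 and Tec for Neat1 (0.9999 and 0.9995) and Rida and Gm20708 for Malat1 (0.9986 and 0.9977). Jak1 and Gm5801 were closest to Gas5 (0.985 and 0.984) and Ppp2r3a and Cul7 to Epb41l4aos (0.995 and 0.992). With 2 groups that lie apart, such r values are high for many genes.

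Of 10 other snoRNA hosts tested, 0 were called in either direction (limma, adjusted p under 0.05), with a median log2 fold change of 0.045. Of all genes tested, 18.4% were called higher and 35.6% lower. The list counts here and below stand beside these shares, and no list was tested against them. At an unadjusted p under 0.05, 3 of the 10 hosts were higher and 0 lower, and limma's voom fit called 0 of 9. Zfas1, the nearest to a call and named after its values were seen, went from 4.48 ± 0.194 to 5.10 ± 0.193 FPKM (limma adjusted p = 0.0509). Under either other scaling 4 of the 10 were higher. The snoRNP proteins that bind snoRNAs had 2 of 12 higher and 1 lower, and 6 higher and 1 lower after median-of-ratios scaling. Fbl, the methyltransferase fibrillarin, rose from 5.46 ± 0.896 to 7.83 ± 0.454 FPKM (log2 fold change 0.46), and Naf1, an assembly factor, fell from 5.21 ± 0.335 to 3.59 ± 0.140 FPKM (log2 fold change -0.43).

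Among 15 paraspeckle protein genes, the partners of Neat1, 2 were higher, 3 lower and 10 not called. The core members Sfpq and Nono were at 32.7 ± 2.86 and 29.8 ± 0.879 FPKM and at 21.4 ± 1.74 and 18.9 ± 1.01 FPKM (limma adjusted p = 0.182 and 0.104). The largest called changes were those of Zc3h6 (log2 fold change -0.57) and Cpsf6 (0.27). After median-of-ratios scaling 4 were higher and 1 lower.

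Of 8 other long noncoding genes tested, 5 were lower and 0 higher, with a median log2 fold change of -0.27. Over all genes tested, 35.6% were lower and 18.4% higher, with a median of -0.12, and so short a list was not tested against this. Firre, a nuclear RNA of the X chromosome, went from 2.85 ± 0.271 to 1.72 ± 0.149 FPKM (-0.50) and Lncpint from 4.98 ± 0.815 to 3.38 ± 0.677 FPKM (-0.45). Under either other scaling 3 were called lower. At an unadjusted p under 0.05, and in the voom fit, 5 were again lower and 0 higher. Of 6 microRNA host genes tested besides Mir155hg, 3 were lower in limma's fit, among them Mir17hg, host of the miR-17 to miR-92 cluster (-0.41), and Dleu2 (-0.29). None of the 6 was called by limma after either scaling. In the voom fit, and at an unadjusted p under 0.05, 3 were again lower and 0 higher.

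The 13 genes reported as miR-155 targets moved both ways, with 6 higher, 3 lower and 4 not called. Socs1, a cytokine signalling inhibitor, rose from 1.09 ± 0.365 to 15.5 ± 2.29 FPKM (log2 fold change 2.98). Trp53inp1, a p53-inducible gene, fell from 8.14 ± 1.10 to 1.68 ± 0.241 FPKM (-1.77). Bach1, a transcription factor gene, fell by 0.63 on the log2 scale. The median over the list was 0.20. Of 13 microRNA processing genes, 2 were higher and 8 lower, and after median-of-ratios scaling 3 and 5. Among them the Argonaute genes split: Ago2 and Ago4 fell (-0.57 and -1.25) while Ago1 and Ago3 rose (0.30 and 0.38).

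**Figure D3:**
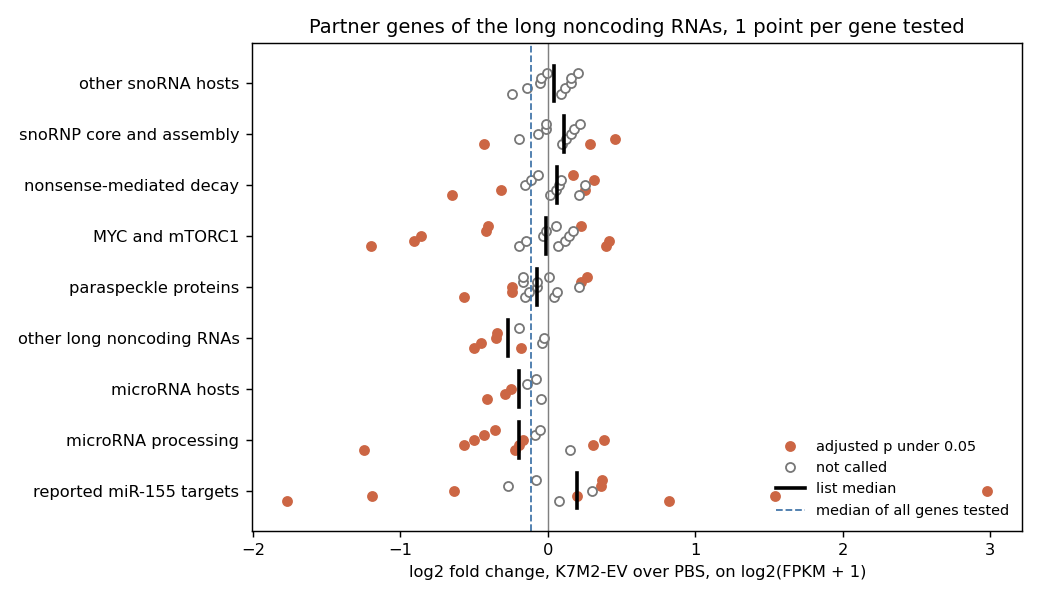
Log2 fold change of K7M2-EV over PBS on log2(FPKM + 1) for each tested gene (1 point) of 9 partner lists, filled where the adjusted p was under 0.05, with list medians as black bars and the median of all genes tested as a dashed line at -0.12. None of the 10 other snoRNA hosts is filled, and the miR-155 targets spread from -1.77 to 2.98.

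The libraries were of similar depth, with 21338940 to 25686460 implied reads each. All 7 macrophage markers passed the filter, with 5 higher, 1 lower and 1 not called. Adgre1 rose from 170 ± 27.2 to 1824 ± 183 FPKM and Cd68 fell from 411 ± 35.3 to 202 ± 11.7 FPKM. The 7 neutrophil genes with a row summed to 3.02 to 5.96 FPKM under PBS and 39.6 to 44.7 FPKM with vesicles. Of 3 tested, 2 were called higher and 1 was not called. S100a8 went from 3.07 ± 0.186 to 39.5 ± 2.04 FPKM and Camp from 0.200 ± 0.133 to 2.22 ± 1.01 FPKM. S100a9, tested but not called, went from 0.783 ± 0.688 to 0.517 ± 0.640 FPKM. Below the filter, Ngp went from 0.453 ± 0.393 to 0.329 ± 0.457 FPKM and Retnlg from 0.406 ± 0.362 to 0.159 ± 0.276 FPKM. Mpo was near 0 in both groups. S100a8 made up most of the sum with vesicles, and Ly6g was listed at 0 in 5 of the 6 libraries. Of 3 lymphocyte genes with a row, Ighm went from 10.0 ± 1.19 to 0.966 ± 0.786 FPKM, and the others were near 0. The part of other cell types in the noncoding RNA levels was not tested.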

How the data were processed

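The authors deposited 1 table of FPKM values per library, 26883 rows of gene symbols each. Per the submitters' processing notes, GRCm38, StringTie 1.3.4b, HISAT2 2.1.0, CASAVA 1.8 and edgeR were used, with no role stated. The handling of strand was not given in the sources used here. A row without a value (1) and 47 rows of repeated symbols (the highest mean was kept) were left out. Exon lengths and positions came from GENCODE M21 (GRCm38), matched by symbol for 99.5% of genes. FPKM times length fell near multiples of 1 step per library, which gave implied totals, and among values of 20 reads or fewer, 72.2% to 73.1% lay within 0.1 of a whole number (20% by chance). Implied reads are approximate, and intervals made from them cover counting error only.

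The test was limma 3.58.1 (trend and robust, with statmod 1.5.0, R 4.3.3) on log2(FPKM + 1), for genes reaching 1 FPKM in 3 or more libraries, with Benjamini-Hochberg adjustment over 13009 genes. Scipy 1.17.1 gave permutation tests. The fit was tested on simulated data, where a larger share of its calls was false than the threshold aims for. That simulation changed few genes and gave every gene the same spread, unlike these data. Its share of false calls therefore cannot be carried over to the calls here. Calls near the threshold remain less certain. Deviations from the group means correlated between libraries of the same number (r = 0.317, 0.294 and 0.209 across genes). The labels do not state a pairing, and the planned fit and tests took the libraries as unpaired. Same-numbered pairs entered only alternatives and the counts of pairs. The replicate block was an alternative, besides pseudocount, filter, scaling, voom and left-out libraries. Members and lists were chosen with earlier results of these data known. Named were all 8 members, their nearest neighbours and 2 most similar genes, and from each list the 2 called genes with the largest change. Zfas1, Sfpq, Nono, Bach1, Ago1, Ago3, Cd68, Ly6g, S100a9, Ngp, Retnlg, Mpo, Myc, Larp1 and Upf1 were added with their values known. A few genes that this rule covers are not reported here.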

Additional observations from a re-analysis of the deposited data

How the results depend on the processing

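The 7 tested members kept their direction in all 119 values under 17 alternatives each, and 102 also kept their side of the threshold. Neat1, Malat1 and AW112010 were called in every one. The replicate block, also as an exact paired test of the summed hosts and of the Neat1 to Malat1 ratio (p = 0.25 each, the smallest 3 pairs allow, chosen after the data were seen), changed no call (Epb41l4aos adjusted p = 0.0242, Gas5 0.101, limma). Members called higher numbered 1 in the planned fit, 2 with median-of-ratios scaling (Gas5 added), 2 with no filter and 2 in the voom fit with no filter (Mir155hg added), 4 with quantile normalization, and 1 to 2 with libraries left out. Gas5 was called without PBS replicate 2 (log2 fold change 0.25, adjusted p = 0.0335). Over all genes, 2395 higher and 4631 lower became 3802 and 3012 with median-of-ratios scaling. With libraries left out there were 1283 to 2390 higher and 2186 to 4253 lower (1509 and 2805 without replicate 1 of both groups). The summed snoRNA host level, -0.60 FPKM with vesicles, became 0.82 FPKM with median-of-ratios scaling, 1.07 FPKM with quantile normalization and 0.0070 FPKM without PBS replicate 2, between -1.23 and 0.0070 FPKM with libraries left out. Median-of-ratios scaling divided FPKM by 1.05, 1.11 and 1.06 in PBS replicates 1 to 3. In K7M2-EV replicates 1 to 3 it divided by 0.930, 0.962 and 0.924, which raised all vesicle values relative to PBS. Why these factors split by group was not tested, nor was the cause of the other shifts. The Neat1 to Malat1 change stayed between -0.89 and -0.81. Depth limits Mir155hg, Epb41l4aos and PBS values of AW112010.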

Other observations

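Growth control genes, to which snoRNA hosts respond, moved both ways. Of 17 tested genes of the MYC and mTORC1 list, 3 were higher, 5 lower and 9 not called (limma, adjusted p under 0.05). Mxd4, a MYC antagonist gene, fell from 13.5 ± 1.85 to 5.27 ± 0.335 FPKM (log2 fold change -1.20), and Tsc1, an inhibitor of mTORC1, fell from 4.72 ± 0.205 to 2.06 ± 0.102 FPKM (-0.90). Larp1, whose protein binds 5′ terminal oligopyrimidine tracts and was named here after its values were seen, rose from 16.9 to 22.5 FPKM (0.40 ± 0.073, SE). Myc was at 2.98 ± 0.706 and 2.88 ± 0.544 FPKM (limma adjusted p = 0.878). After median-of-ratios scaling 8 of the list were higher and 4 lower.

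Of 14 nonsense-mediated decay factors, 3 were higher, 2 lower and 9 not called, and 9 were higher and 2 lower after median-of-ratios scaling. Upf3b, an exon junction reader, fell from 4.42 ± 0.511 to 2.45 ± 0.186 FPKM (log2 fold change -0.65), and Smg6, the endonuclease of the pathway, from 5.40 ± 0.162 to 4.13 ± 0.151 FPKM (-0.32). Upf1, the central helicase, named after its values were seen, rose by 0.25 on the log2 scale (limma adjusted p = 0.00448).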
